A study of Mus musculus with 2 samples.

Results

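The cells described here were named keratinocytes of the upper hair follicle (HF) and isthmus of mouse back skin after the markers that chose them. They were picked out by their transcripts in a droplet-based single-cell library. Not every gene known from these regions was higher in them than in other keratinocytes, as given below. Barcodes entered with 500 or more genes, 1000 or more unique molecular identifiers (UMIs, each standing for 1 captured transcript) and a mitochondrial share of UMIs no higher than 10%. A member was such a barcode with at least 1 UMI in 3 or more of the 7 genes *Sostdc1*, *Vsnl1*, *Gata6*, *Lrig1*, *Krt79*, *Aldh3a1* and *Sox7*. It also had fewer than 100 UMIs of *Krt1* and *Krt10* together per 10000, and UMIs in fewer than 3 of 8 sebocyte genes (*Cidea*, *Far2*, *Acsbg1*, *Soat1*, *Fa2h*, *Mc5r*, *Awat2* and *Pparg*). By this rule 376 of 8899 kept barcodes of the skin were members, which is 4.23% (exact 95% interval 3.82% to 4.66%). Another 12 barcodes had 3 or more of the markers but too many UMIs of *Krt1* and *Krt10*, and 4 more had too many sebocyte genes. The measured values themselves thus chose the members, and the levels of the genes in the rule are given as a description.

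The skin library came from 6 mm back skin biopsies of 3 male C57BL/6 mice aged 52 weeks, which were pooled before the library was made, and a library was also made of the pooled preputial glands (PG). The labels name the same kits for both libraries, but their barcode lists differ in length (6794880 in skin and 737280 in PG), and what this means for the values was not tested. No genetic change or treatment was named for either tissue. The skin library held 37675226 UMIs in 571670 barcodes, of which 27407186 were in the 8899 kept barcodes, and the PG library had 4699 kept barcodes, so that 13598 were kept in all. The barcode lists had 77142 entries in common. No kept barcode was shared by the libraries, which lists that differ so much favor. With 1 pooled library a tissue there was no spread between mice and no test could be made, so levels, ratios and exact 95% intervals are given, and the intervals cover counting error only.

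The upper HF lies above the bulge and is made of the isthmus, the junctional zone with the opening of the sebaceous gland, and the infundibulum that leads to the skin surface. Its stem cells express the growth factor receptor antagonist *Lrig1* and maintain the infundibulum and the gland in the resting animal. *Gata6*, a zinc finger transcription factor, marks the duct of the sebaceous gland, and *Krt79*, a type II keratin, marks the cells that line the canal. *Sostdc1* encodes a secreted antagonist of BMP and Wnt ligands, *Aldh3a1* an aldehyde dehydrogenase, *Vsnl1* a calcium sensor of the visinin family, and *Sox7* a SOX transcription factor.

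Sequences are shown for *Krt79*, the gene of the rule with the most UMIs in members, and for *Defb6*, a β-defensin gene that the rule did not use and whose level was high in the same cells. Each is the 250 bases before the start of the gene, from RefSeq on GRCm38.p6, written 5′ to 3′ along the strand of the gene. For *Krt79* these are chr15:101940325-101940574 on the minus strand, and for *Defb6* chr8:19225228-19225477 on the plus strand. Capitals mark matches on either strand to GATAA, the core bound by GATA factors, and to ACAAT, a core bound by SOX factors. The motifs were searched because *Gata6* and *Sox7* are in the rule, and they did not overlap.
Krt79: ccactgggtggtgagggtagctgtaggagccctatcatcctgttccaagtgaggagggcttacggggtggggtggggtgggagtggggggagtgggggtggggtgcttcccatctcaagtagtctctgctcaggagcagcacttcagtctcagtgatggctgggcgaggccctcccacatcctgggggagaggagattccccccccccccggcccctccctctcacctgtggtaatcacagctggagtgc
Defb6: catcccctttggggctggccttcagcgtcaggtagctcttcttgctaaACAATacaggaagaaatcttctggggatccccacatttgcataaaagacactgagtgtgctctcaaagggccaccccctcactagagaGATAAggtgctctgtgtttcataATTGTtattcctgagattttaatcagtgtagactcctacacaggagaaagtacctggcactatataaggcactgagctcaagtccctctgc
The window of *Defb6* held 1 match to GATAA and 2 to ACAAT, and that of *Krt79* held 0 of either. Of 27025 genes in the RefSeq table, 23.0% had a GATAA and 28.3% an ACAAT in a window of this length. A match is a description of the letters and not a site of binding.

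In members, *Sostdc1* had UMIs in 272 of the 376 cells (72.3%), *Krt79* in 235 (62.5%), *Aldh3a1* in 209 (55.6%), *Lrig1* in 191 (50.8%), *Gata6* in 160 (42.6%), *Vsnl1* in 115 (30.6%) and *Sox7* in 114 (30.3%). *Krt79* was detected with a median of 7 UMIs where present and up to 241 in a cell, against a median of 2 for *Sostdc1* and of 1 for the other 5 genes. Exactly 3 markers were found in 253 members, 4 in 87, 5 in 28, 6 in 7 and all 7 in 1 cell. The markers were not spread evenly over each other. *Krt79* UMIs were present in 121 of the 160 cells with *Gata6* (75.6%) but in 42 of the 115 cells with *Vsnl1* (36.5%). *Sostdc1* UMIs were present in 87 of the cells with *Vsnl1* (75.7%) and in 94 of those with *Gata6* (58.8%). The most frequent set was *Sostdc1*, *Lrig1* and *Aldh3a1* without the rest, in 30 members, followed by *Gata6*, *Lrig1* and *Krt79*, in 21.

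The genes of the rule lie on separate chromosomes except for *Sostdc1* and *Vsnl1*, both on chromosome 12. *Sostdc1* lies at chr12:36314139-36318452 on the plus strand and *Krt79* at chr15:101929332-101940324 on the minus strand (mm10, GENCODE M21 gene models). *Lrig1* lies at chr6:94604529-94700158, *Aldh3a1* at chr11:61207537-61218421 and *Sox7* at chr14:63943673-63950732.

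The members were set beside 4 groups of skin cells, with the summed UMIs of each group given per 1000000 UMIs (CPM). Basal-type keratinocytes were 2737 cells with at least 50 UMIs of *Krt5* and *Krt14* per 10000 and few UMIs of *Krt1* and *Krt10*. Bulge-type keratinocytes were 223 cells that also had UMIs in 2 or more of 7 bulge genes. Suprabasal-type keratinocytes were 1154 cells with at least 100 UMIs of *Krt1* and *Krt10* per 10000, and fibroblast-type cells were 1017 cells with 4 or more of 7 fibroblast genes and few UMIs of *Krt5* and *Krt14*. RNA free in the suspension was read from the barcodes of at most 100 UMIs. Members had a median of 3340.5 UMIs and 1287 genes, against 2584 UMIs in basal-type, 1891 in bulge-type, 3194 in suprabasal-type and 1880 in fibroblast-type cells. The median of the members was above that of each of these groups, which a rule on detected genes favors, although the upper quartile of suprabasal-type cells was higher (5140.25 against 4602.25 UMIs), so shares of cells with a UMI are given after every cell was thinned to 1000 UMIs.

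*Krt79* stood at 2552 CPM in members, 182 in suprabasal-type, 70.4 in basal-type, 26.1 in bulge-type and 27.8 in fibroblast-type cells, and at 250.1 in free RNA. After thinning, *Krt79* had a UMI in 46.8% of members and in 0.88% of fibroblast-type cells, which should lack it. *Sostdc1* stood at 488 CPM in members, 146 in bulge-type and 76.2 in basal-type cells. Thinned, *Sostdc1* was found in 39.1% of members, 13.9% of bulge-type, 6.61% of basal-type and 0.39% of fibroblast-type cells. *Gata6* stood at 157 CPM in members and at 7.0 in basal-type cells, and *Sox7* at 97.1 and 5.9. The plot of levels by group places the members above every other group for all 7 genes, which the rule favors.

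Members just inside the limit on markers were set beside the cells just outside it. The 253 members with 3 markers had a median of 3088 UMIs and 16906 CPM of *Cst6*, 2737 of *Defb6*, 5335 of *Krt17*, 1958 of *Krt5*, 3846 of *Krt14* and 313 of *Alox12e*. The 544 cells with 2 markers that met the other conditions had a median of 2423 UMIs and 14212 CPM of *Cst6*, 2062 of *Defb6*, 5643 of *Krt17*, 2246 of *Krt5*, 4668.5 of *Krt14* and 212 of *Alox12e*. Cells with 1 marker, 1405 cells, had 5437 CPM of *Cst6* and 769 of *Defb6*, and the 5384 cells with none had 253 and 29.9. Of the 544 cells with 2 markers, 230 were in the basal-type group described above, 23 in the bulge-type and 12 in the fibroblast-type group. The other 279 were in none of the groups, at 27831 CPM of *Cst6*, and held 92.8% of the *Cst6* UMIs of the 544.

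**Figure D1:**
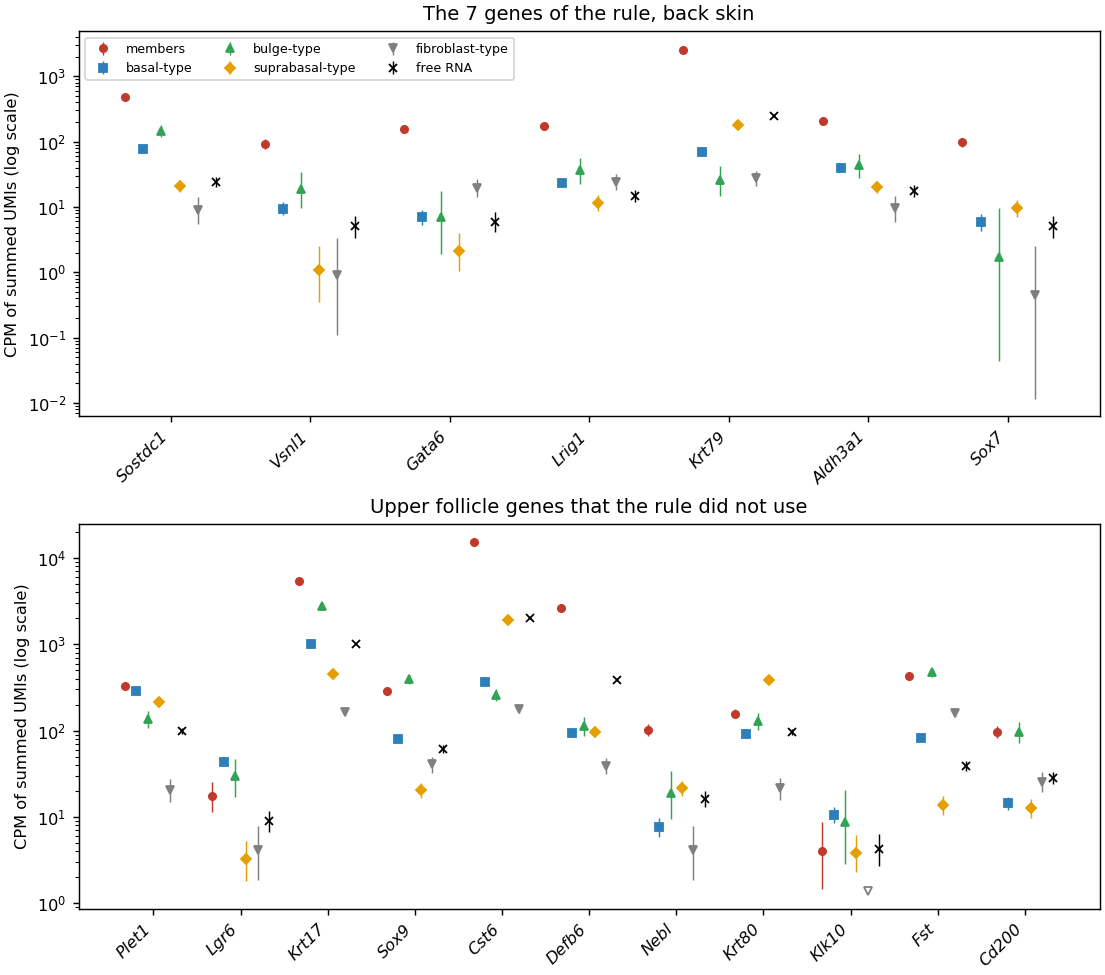
Levels in CPM of summed UMIs (log axis) of the 7 genes of the rule (top) and of 11 upper follicle genes that the rule did not use (bottom) in members, 4 other groups of skin cells and free RNA. Points are levels, bars exact 95% Poisson intervals, and an open point stands for a group without a UMI at the limit of 3 counts; *Defb6* and *Nebl* are highest in members, *Cst6* is highest in CPM but not in its share of cells, and *Lgr6* is higher in basal-type cells.

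*Cst6* encodes cystatin M/E, an inhibitor of the cathepsins that take part in cornification, and *Defb6* a β-defensin. *Cst6* (chr19:5344705-5349574, minus strand) stood at 15486 CPM in members, 367 in basal-type, 261 in bulge-type, 1895 in suprabasal-type and 177 in fibroblast-type cells, and at 2017 in free RNA. Its log2 ratio of members over basal-type cells was 5.40 (5.34 to 5.45). *Defb6* (chr8:19225478-19228209, plus strand) stood at 2672 CPM in members, 95.1 in basal-type, 113 in bulge-type, 97.2 in suprabasal-type and 39.2 in fibroblast-type cells, and at 389 in free RNA, a log2 ratio of 4.81 (4.70 to 4.93) over basal-type cells. After thinning, *Defb6* had a UMI in 44.7% of members, 3.51% of basal-type and 1.87% of fibroblast-type cells. *Cst6* had one in 41.8% of members, 43.2% of suprabasal-type, 10.3% of basal-type and 7.08% of fibroblast-type cells, so its share of cells goes against its CPM between members and suprabasal-type cells and no order is read from it.

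The UMIs of these genes were concentrated in few members. *Cst6* was at 0 in 158 members, the 38 members with the most *Cst6* held 81.3% of its UMIs, and the highest held 1976. *Defb6* was at 0 in 159 members and the 38 highest held 53.8% of its UMIs. By comparison *Krt14*, a keratin of the basal layer, was at 0 in 30 members, and *Krt15* was at 0 in 36, with 36.8% of its UMIs in the 38 highest. *Sostdc1* had at most 16 UMIs in a cell, with 39.6% of its UMIs in the 38 highest.

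Of the 12 upper follicle genes outside the rule, 11 reached 20 CPM in members or basal-type cells. At least 2-fold higher in members were 8 of the 11, and 1 was at least 2-fold lower. Of all 5729 genes compared, 316 (5.52%) were at least 2-fold higher and 208 (3.63%) at least 2-fold lower, and the median log2 ratio was 2.45 over the list and 0.06 over all genes. The list is one of genes known in the same cells as the markers, so the count is a description. *Sox9*, a SOX factor of the HF, stood at 291 CPM in members and 80.3 in basal-type cells. *Fst*, the activin antagonist follistatin, stood at 435 and 82.9, *Cd200*, a membrane glycoprotein known from HF stem cells, at 97.1 and 14.4, and *Krt17*, a keratin of the appendages, at 5479 and 1001. *Plet1*, a surface protein known from the junctional zone, did not separate the groups, at 332 and 286 CPM. *Lgr6*, the R-spondin receptor known from isthmus stem cells, went the other way, at 17.4 CPM in members and 42.9 in basal-type cells (log2 ratio -1.30, -1.94 to -0.73). *Klk10* was at 4.0 and 10.5 CPM, under the limit of 20 in both. The count of higher genes thus did not include the isthmus gene *Lgr6* or the junctional zone gene *Plet1*.

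**Figure D2:**
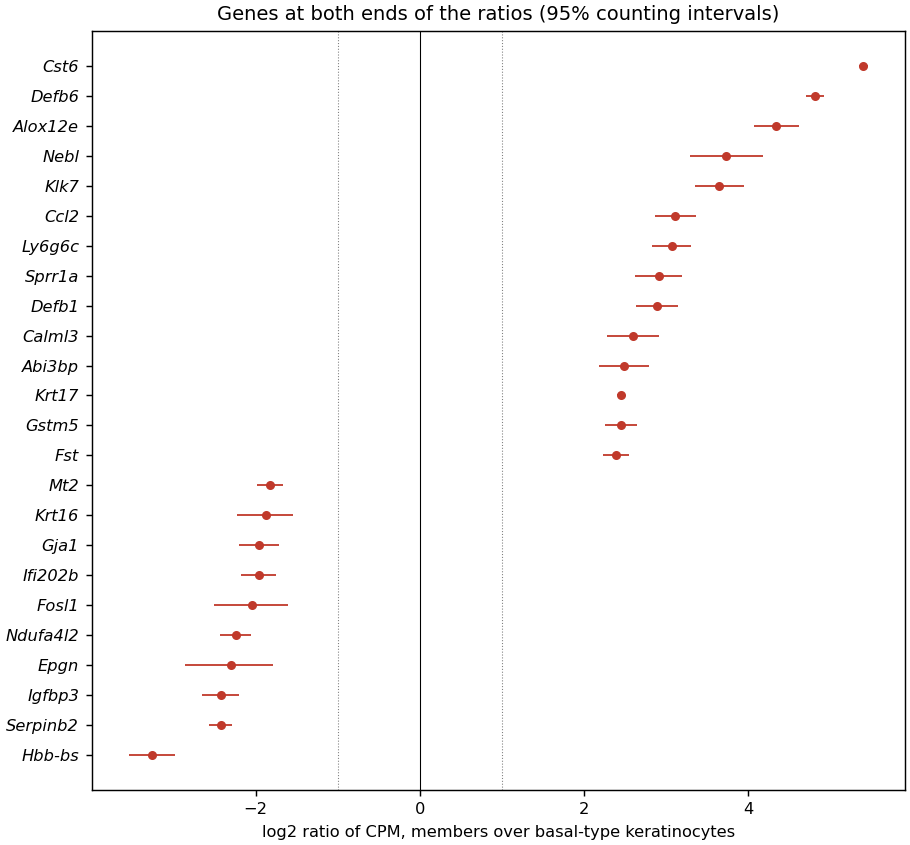
Log2 ratios of CPM, members over basal-type keratinocytes, for 14 genes at the upper end and 10 at the lower end (points), with exact 95% counting intervals (bars) and dotted lines at 2-fold. *Cst6* and *Defb6* lead at 5.40 and 4.81, and *Hbb-bs*, at -3.26, is lowest.

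The genes with the largest ratios over basal-type cells were led by *Cst6* and *Defb6*. The basal-type group required UMIs of *Krt5* and *Krt14* and the members did not, which favors genes of cells low in these keratins. Among the cells with 2 markers, *Cst6* stood at 2257 CPM in the 230 basal-type cells and at 27831 in the 279 cells of no group. How far this raised the ratios was not tested. Of the 12 genes of the suprabasal list, 9 were compared over basal-type cells. In members 4 were at least 2-fold higher and 2 at least 2-fold lower, with a median log2 ratio of 0.40. Over all genes the shares were 5.52% and 3.63%. *Alox12e*, an epidermal 12-lipoxygenase, stood at 350 CPM in members and 17.3 in basal-type cells (log2 ratio 4.34, 4.07 to 4.62). After thinning, *Alox12e* had a UMI in 24.7% of members, 15.1% of suprabasal-type and 1.21% of basal-type cells. *Nebl*, the actin-binding protein nebulette, stood at 101 and 7.6 CPM (3.73, 3.30 to 4.18). *Klk7*, a kallikrein that cleaves corneodesmosomes during desquamation, stood at 204 and 16.3 CPM (3.65, 3.35 to 3.95). It was not highest in members, since suprabasal-type cells had 331 CPM of *Klk7*. The same held for *Ly6g6c*, a Ly6 family surface protein, at 256 CPM in members, 30.5 in basal-type and 1396 in suprabasal-type cells. *Sprr1a*, a cornified envelope precursor, stood at 164 CPM in members, 21.8 in basal-type and 328 in suprabasal-type cells. The UMIs of *Klk7* and *Sprr1a* were concentrated in few members. *Klk7* was at 0 in 310 members, with 89.5% of its UMIs in the 38 highest, and *Sprr1a* at 0 in 314, with 90.2%. *Defb1*, another β-defensin, stood at 198 and 26.7 CPM in members and basal-type cells (2.89, 2.63 to 3.15), and *Gstm5*, a glutathione S-transferase, at 279 and 51.0. *Calml3*, a calmodulin-like protein, stood at 119 and 19.6 CPM, and at 247 in bulge-type cells.

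*Ccl2*, a chemokine for monocytes, and *Abi3bp*, a matrix protein, were also among these genes, and both were higher in fibroblast-type cells than in members. *Ccl2* stood at 238 CPM in members, 27.5 in basal-type, 7.0 in bulge-type and 547 in fibroblast-type cells. *Abi3bp* stood at 123 CPM in members, 21.8 in basal-type and 349 in fibroblast-type cells. *Ccl2* was uneven, with 317 members at 0, 94.1% of its UMIs in the 38 highest and 89 in a single cell. When barcodes with 3 or more markers of another cell class were left out of both groups, *Ccl2* stood at 252 CPM in members and 13.8 in basal-type cells, *Cst6* at 15748 and 383, and *Defb6* at 2827 and 99.3. For *Cst6* and *Defb6* the differences remained of similar size, and that of *Ccl2* was larger. The log2 ratio of *Ccl2* over basal-type cells was 3.11 as measured and 1.04 when the markers of the rule were counted after thinning.

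At the other end, *Hbb-bs*, a β-globin gene of red blood cells, stood at 73.6 CPM in members and 705 in basal-type cells, with 4703 in free RNA. *Serpinb2*, plasminogen activator inhibitor 2, stood at 295 CPM in members and 1582 in basal-type cells (log2 ratio -2.42, -2.57 to -2.29). *Igfbp3*, an IGF-binding protein, stood at 112 and 603 CPM, and *Krt16*, a keratin of stressed epidermis, at 50.9 and 187. *Epgn*, the EGFR ligand epigen, stood at 21.4 and 106 CPM, *Fosl1*, an AP-1 factor, at 30.1 and 124, and *Gja1*, connexin 43, at 102 and 397. *Ndufa4l2*, a mitochondrial protein induced by hypoxia, stood at 164 and 774 CPM, *Ifi202b*, an interferon-inducible gene, at 125 and 484, and *Mt2*, a metallothionein, at 232 and 821. For *Serpinb2*, *Igfbp3* and *Krt16* the Krt79-positive members described further on were nearer the basal-type cells than the other members were.

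Genes of the basal layer were lower in members than in basal-type cells, which the definition of the basal-type group by *Krt5* and *Krt14* favors. Of 12 genes, 6 were at least 2-fold lower and 0 at least 2-fold higher, beside 3.63% and 5.52% of all genes. *Krt5* stood at 1910 CPM in members and 4540 in basal-type cells, *Krt14* at 3651 and 9078, and *Col17a1*, the hemidesmosomal collagen, at 709 and 1582. *Itga6*, the integrin α6 of hemidesmosomes, which the definition did not use, stood at 185 and 393 CPM (log2 ratio -1.08, -1.27 to -0.91). Against suprabasal-type cells the same list went the other way, with 10 of 11 genes at least 2-fold higher in members. Of all genes in that comparison, 13.9% were at least 2-fold higher. Members thus lay between the basal-type and suprabasal-type cells in this list.

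Enzymes and carriers for aldehydes, xenobiotics and retinoids were at least 2-fold higher in members than in basal-type cells for 7 of the 9 genes that reached 20 CPM, out of 16 in the list, beside 5.52% of all genes. Over bulge-type cells 4 of 11 were at least 2-fold higher and 2 at least 2-fold lower, with a median log2 ratio of 0.17. Of all genes over bulge-type cells, 5.83% were at least 2-fold higher and 9.02% at least 2-fold lower. *Gstm1*, a glutathione S-transferase, stood at 145 and 31.9 CPM (2.19, 1.92 to 2.45). *Stra6*, the receptor through which cells take up retinol, stood at 23.4 and 2.5 CPM (3.26, 2.42 to 4.13), and *Crabp2*, which carries retinoic acid to the nucleus, at 40.2 and 7.7. *Cyp1b1*, a cytochrome P450, stood at 28.1 and 4.5 CPM, *Gpx2*, a glutathione peroxidase, at 25.4 and 6.7, and *Aldh3a2* at 24.1 and 9.7. *Aldh2* and *Gsto1* were close between the groups, at 115 and 103 CPM and at 88.4 and 75.9 CPM. *Ahr*, the aryl hydrocarbon receptor that drives *Cyp1b1* in other tissues, stood at 218 CPM in members, 103 in basal-type and 40.0 in bulge-type cells.

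Other transcription factors were less uniform. At least 2-fold higher in members than in basal-type cells were 4 of 14 factors, namely *Foxc1*, *Sox9*, *Barx2* and *Ahr*. The 1 factor at least 2-fold lower was *Klf5*. Of all genes compared, 5.52% were at least 2-fold higher and 3.63% at least 2-fold lower. *Foxc1*, a forkhead factor of HF stem cells and of the sebaceous gland, stood at 89.7 CPM in members, 10.9 in basal-type and 45.2 in bulge-type cells (log2 ratio over basal-type 3.04, 2.64 to 3.44). *Klf5*, a Krüppel-like factor, stood at 158 and 366 CPM, and *Trp63*, the p63 gene that sustains the epidermis, at 194 and 243.

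Among signals, *Ccl27a*, the keratinocyte chemokine for skin-homing T cells, stood at 1665 CPM in members and 937 in basal-type cells, and *Cxcl12*, a chemokine of stem cell niches, at 137 and 38.4. *Cxcl14* was lower in members, at 160 CPM against 428 in basal-type and 1464 in bulge-type cells. Of all genes, 5.52% were at least 2-fold higher in members than in basal-type cells and 3.63% at least 2-fold lower. The list counts that follow are small, and no result about a list is read from them. Of 8 compared genes of the chemokine and cytokine list, which does not hold *Cxcl12*, *Ccl2* and *Csf1* were at least 2-fold higher in members than in basal-type cells, and *Cxcl14*, *Il33* and *Tslp* at least 2-fold lower. *Csf1* had a UMI after thinning in 3 of 376 members (0.80%), all of them Krt79-positive, in 0.88% of basal-type and in 21.5% of fibroblast-type cells, so no order is read from it. In the Wnt list none of 7 genes was at least 2-fold higher and 2 were at least 2-fold lower, among them *Wnt3*, at 17.4 and 65.1 CPM. *Wnt4* stood at 94.4 and 226 CPM and was the other. Of 9 BMP and TGF-β genes 2 were at least 2-fold higher and 2 at least 2-fold lower. *Bmp7*, a BMP ligand, stood at 46.2 and 9.2 CPM and *Bmp2* at 8.7 and 29.4. Of 6 Notch genes compared, *Nrarp*, a target of the pathway, was at least 2-fold higher, at 68.3 and 23.2 CPM, and *Dll1*, a ligand, at least 2-fold lower, at 8.7 and 30.1. *Areg*, the EGFR ligand amphiregulin, stood at 51.5 and 20.6 CPM, and was the 1 of 8 EGFR family genes at least 2-fold higher, while *Epgn* was the 1 at least 2-fold lower.

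Among stress and division genes, 0 of 10 immediate early and heat shock genes were 2-fold apart from basal-type cells either way, beside the 5.52% and 3.63% of all genes, with *Fos* at 1050 and 1286 CPM and *Hspa1a* at 1291 and 674. Of 7 cell cycle genes, 0 were 2-fold apart, with *Mki67* at 123 and 94.2 CPM and *Top2a* at 125 and 122. Over bulge-type cells 5 of 7 and over suprabasal-type cells 6 of 7 cell cycle genes were at least 2-fold higher in members, beside 5.83% and 13.9% of all genes, with *Mki67* at 48.7 CPM in bulge-type and 7.5 in suprabasal-type cells. With markers counted after thinning, *Mki67* over suprabasal-type cells came under 2-fold (log2 ratio 0.85).

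Against bulge-type cells, 364 of 6239 genes (5.83%) were at least 2-fold higher in members and 563 (9.02%) at least 2-fold lower. In the upper follicle list, 5 of 11 genes were at least 2-fold higher and none at least 2-fold lower. The other 6, among them *Sox9*, *Fst*, *Cd200* and *Krt17*, were less than 2-fold apart. *Fst* stood at 435 CPM in members and 473 in bulge-type cells, and *Cd200* at 97.1 and 95.6. *Ccl2*, *Pkib*, a protein kinase inhibitor, and *Hist1h1b*, a linker histone of dividing cells, were at the higher end with *Cst6* and *Defb6*. *Pkib* stood at 130 and 7.0 CPM and *Hist1h1b* at 249 and 17.4. The direction of *Hist1h1b* turned when the markers of the rule were counted after thinning, which left 87 members (log2 ratio -4.19). Each of these 3 rested on 10 or fewer UMIs in bulge-type cells. At the lower end stood genes known from the bulge. None of them defined the bulge-type group, but its choice by other bulge genes favors this direction. *Sfrp1*, a secreted Wnt inhibitor, stood at 22.8 CPM in members and 395 in bulge-type cells (-4.12, -4.68 to -3.59), and *Dkk3*, of the dickkopf family, at 8.0 and 169. *Angptl7*, an angiopoietin-like protein, stood at 6.0 and 195 CPM, and *Kcnk2*, a potassium channel, had a log2 ratio of -4.41 (-5.29 to -3.63) and *Shisa2* one of -3.88 (-4.78 to -3.08). *Postn*, the matrix protein periostin, stood at 95.7 and 930 CPM. *S100a4* stood at 93.7 and 1330 CPM, and *Tgm5* and *Wfdc3* at 4.7 and 167 and at 7.4 and 101. *Cd200* had a UMI after thinning in 6.12% of members and 12.6% of bulge-type cells, a share that goes against the equal CPM. Members were thus close to bulge-type cells in *Fst* and *Sox9* and far from them in *Sfrp1* and *Dkk3*.

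Against suprabasal-type cells, 825 of 5918 genes (13.9%) were at least 2-fold higher in members and 643 (10.9%) at least 2-fold lower. The comparison spans the definition by *Krt1* and *Krt10*, and 11 of the 12 suprabasal genes were at least 2-fold lower. *Krtdap* stood at 893 CPM in members and 12598 in suprabasal-type cells, and *Sbsn*, suprabasin, at 1404 and 10018. *Krt78*, a keratin of the upper epidermis, had no UMI in members and stood at 216 CPM in suprabasal-type cells, at least 108-fold lower in members against a limit of 3 counts over the group. *Tesc*, a calcium-binding protein, stood at 2.7 and 466 CPM (-7.44, -9.32 to -6.09), and *Hal*, histidine ammonia-lyase, which makes urocanic acid in the cornified layer, at 2.0 and 230 (-6.84, -9.12 to -5.29). *Gm94*, *Mt4*, *Gsta2*, *Serpinb12* and *Gjb5* completed the lower end, with *Mt4*, a metallothionein of stratified epithelia, at 55.6 and 2148 CPM. At the higher end, *Fst* stood at 435 and 13.7 CPM (4.99, 4.61 to 5.38), *Abi3bp* at 123 and 5.6, and *Cxcl12* at 137 and 6.9. *Acsl4*, an acyl-CoA synthetase, stood at 152 and 7.3 CPM and *C1qtnf12*, a secreted C1q/TNF-related protein, at 248 and 13.7.

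The members were split by *Krt79* and *Sostdc1*, the genes of the rule found most often. A *Krt79* UMI and no *Sostdc1* UMI was found in 83 cells (22.1%), called Krt79 members. Both were found in 152 cells (40.4%), *Sostdc1* alone in 120 cells (31.9%), called Sostdc1 members, and neither in 21 (5.59%). Median UMIs were 3324 in Krt79 members, 3759.5 in members with both and 3143.5 in Sostdc1 members, so the cells with both were deeper. The split was made on the same UMIs that are compared, and the genes of the rule are left out of its counts.

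*Cst6* stood at 47496 CPM in Krt79 members, 11728 in members with both and 245 in Sostdc1 members. *Defb6* stood at 5834, 2949 and 222 CPM, and *Krt17* at 11454, 5643 and 1442. Within each group the cells varied widely. *Cst6* was at 0 in 13 of the 83 Krt79 members, with a median of 92.6 and a maximum of 3141 UMIs per 10000. In the 152 members with both, *Cst6* was at 0 in 51, with a median of 5.9 and a maximum of 1717 per 10000, and it was at 0 in 81 of the 120 Sostdc1 members, with a maximum of 62.0. *Krt5* had medians of 2.4, 16.1 and 23.1 UMIs per 10000 in the same order, and was at 0 in 40 of the Krt79 members and in 1 of the Sostdc1 members. The cells with both lay between the others in these medians, and the ranges overlapped in all 4 genes.

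**Figure D3:**
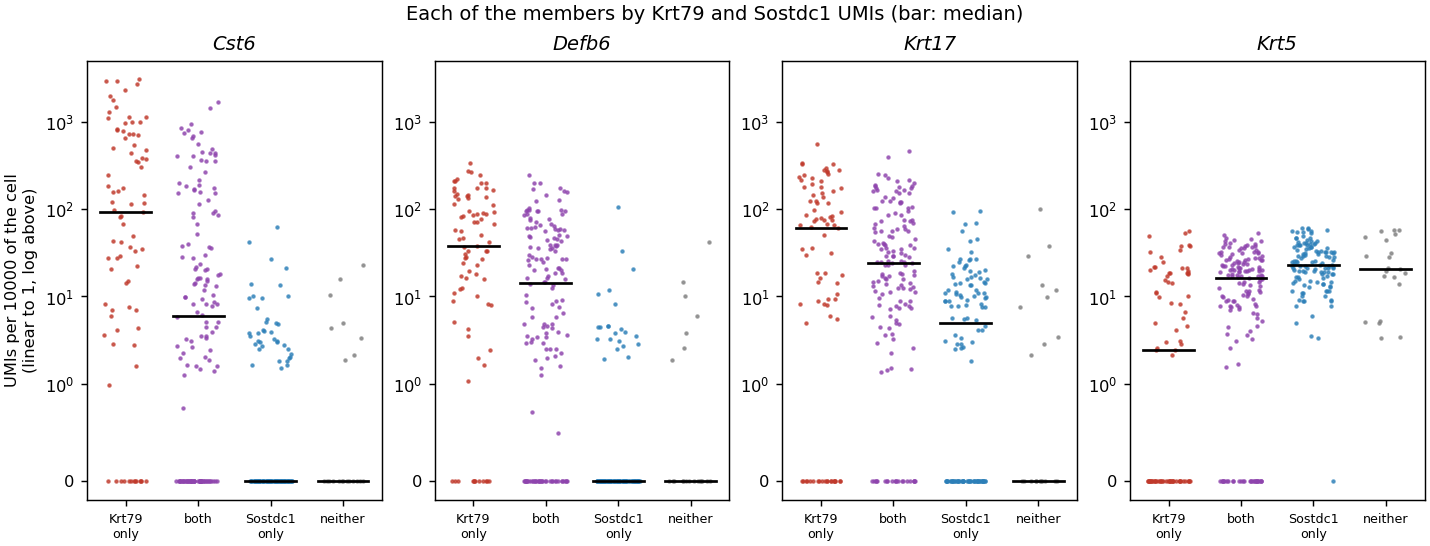
UMIs per 10000 of a cell (linear to 1, log above) of *Cst6*, *Defb6*, *Krt17* and *Krt5* in each of the 376 members, by whether *Krt79*, *Sostdc1*, both or neither had a UMI; points are cells and bars are medians. *Cst6* has a median of 92.6 in Krt79 members and 0 in Sostdc1 members, while *Krt5* has medians of 2.4 and 23.1.

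Between Krt79 and Sostdc1 members, 736 of 6172 genes (11.9%) were at least 2-fold higher in Krt79 members and 827 (13.4%) at least 2-fold lower. These groups held 312111 and 423671 UMIs, so that a gene at 20 CPM had fewer than 10 UMIs in either. Ribosomal protein genes held 23.9% of the UMIs of Krt79 members and 30.8% of those of Sostdc1 members, and taking ribosomal and mitochondrial genes out of the totals moved the median log2 ratio from -0.04 to -0.18, a shift of -0.14. Under those totals 863 genes were at least 2-fold higher and 1453 at least 2-fold lower in Krt79 members. The ratios named at both ends are larger than this shift.

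Genes of the suprabasal layers were higher in Krt79 members, with 7 of 10 at least 2-fold higher and none at least 2-fold lower. Over all genes the shares were 11.9% and 13.4%. The median log2 ratio was 3.22 over the list and -0.05 over all genes. *Sbsn* stood at 3342 CPM in Krt79 members, 1308 in members with both and 293 in Sostdc1 members, and *Krtdap* at 2118, 784 and 229. *Ivl*, involucrin of the cornified envelope, stood at 103, 33.0 and 4.7 CPM. *Klk7* stood at 487, 211 and 14.2 CPM (log2 ratio of Krt79 over Sostdc1 members 5.10, 3.95 to 6.57), *Sprr1a* at 458, 136 and 14.2, and *Ly6g6c* at 628, 249 and 23.6. *Dsc1*, a desmocollin of the upper layers, stood at 135, 63.1 and 4.7 CPM, and *Cldn4*, a claudin of tight junctions, at 179, 34.4 and 7.1. *2310046K23Rik* stood at 346 CPM in Krt79 members and had no UMI in Sostdc1 members, at least 48.9-fold higher against the limit of 3 counts. *Crabp2* and *Psapl1* were at 122 and 186 CPM in Krt79 members on 38 and 58 UMIs, and on 2 and 3 UMIs in Sostdc1 members. *Areg* stood at 176, 20.1 and 11.8 CPM. Over the alternatives, the log2 ratio of Krt79 over Sostdc1 members was lowest at 1.86 for *Klk7* and 1.64 for *Sprr1a*. For *Dsc1* it was lowest at 1.44 and for *Crabp2* at 1.05, still at least 2-fold higher.

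The upper follicle list was at least 2-fold higher in Krt79 members for 8 of 11 genes. It was at least 2-fold lower for 2, *Fst* and *Lgr6*. Of all genes compared, 11.9% were at least 2-fold higher and 13.4% at least 2-fold lower. *Fst* stood at 269 CPM in Krt79 members, 364 in members with both and 668 in Sostdc1 members, and *Lgr6* at 6.4, 11.5 and 35.4 on 2, 8 and 15 UMIs. Basal layer genes were at least 2-fold lower in Krt79 members for 7 of 11, beside 13.4% of all genes. *Krt5* stood at 910, 1786 and 2773 CPM, *Krt14* at 2025, 3537 and 5160, and *Col17a1* at 340, 592 and 1140. *Hpgd*, the prostaglandin dehydrogenase, stood at 12.8, 48.7 and 146 CPM (-3.51, -5.43 to -2.09), *Postn* at 19.2, 65.9 and 184, and *Cdh13*, T-cadherin of basal keratinocytes, at 35.2, 86.0 and 210. *Lamb3*, a laminin 332 chain, stood at 32.0, 106 and 127 CPM. *Gpha2*, a glycoprotein hormone subunit known from limbal stem cells, stood at 28.8, 107 and 170 CPM, and *Ccn1*, a matricellular protein, at 76.9, 192 and 347. *Htra1*, *Slc6a6*, *Svbp* and *S100a4* were the rest of the lower end, each with 8 to 11 UMIs in Krt79 members, and *S100a4* turned to 2.05 when the markers of the rule were counted after thinning. Under that alternative *Hpgd* was at -0.36, *Postn* at -0.78, *Lamb3* at -0.63, *Htra1* at -0.36 and *Slc6a6* at -0.17, each less than 2-fold, and *Ccn1* was at -0.92 with 4 or more markers. For most of these genes the members with both stood between the other groups. *Mki67* stood at 89.7, 96.0 and 201 CPM, and *Ahr*, at 260, 191 and 220, hardly followed the split.

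**Figure D4:**
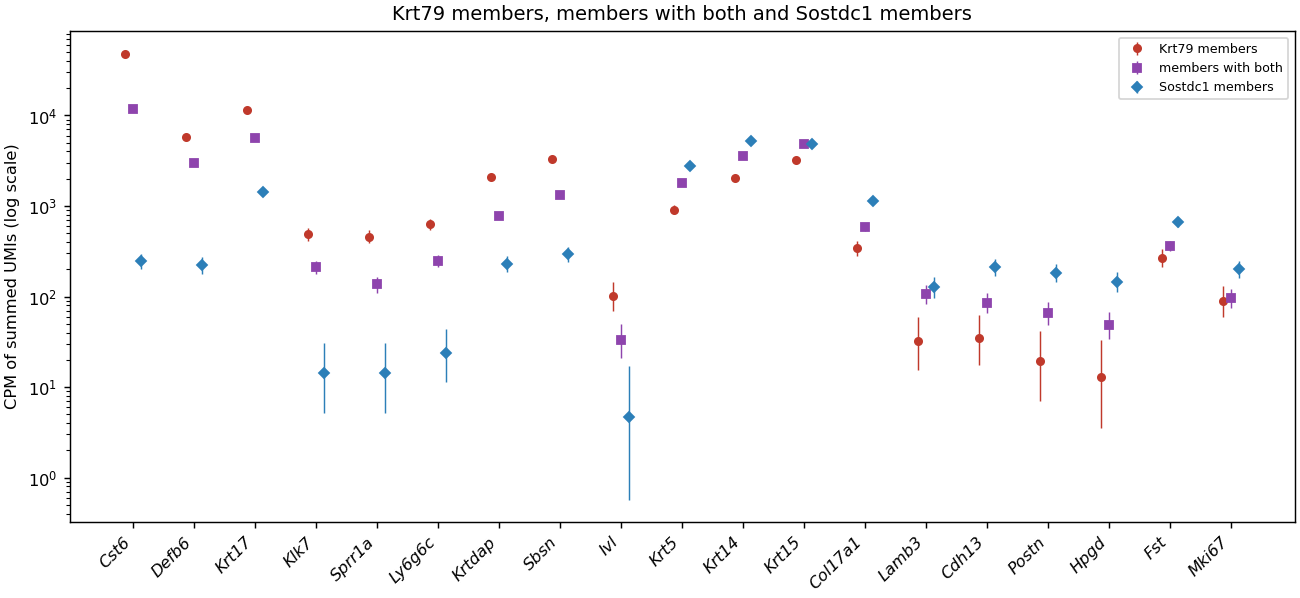
Levels in CPM of summed UMIs (log axis) of 19 genes in Krt79 members (83 cells), members with both *Krt79* and *Sostdc1* (152 cells) and Sostdc1 members (120 cells); points are levels and bars exact 95% Poisson intervals. From *Cst6* to *Ivl* the Krt79 members are highest, and from *Krt5* to *Fst* the Sostdc1 members are highest or equal to the members with both.

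Clustering without the genes of the rule placed most members in 2 clusters. Of 32 Leiden clusters of the kept skin barcodes, 22 held members. The 2 clusters with the most held 262 of the 376 (69.7%), although members were 27.0% of their 970 cells. In the larger, of 666 cells with 176 members, the leading genes were *Plin2*, *Hpgd*, *Acsl4*, *Ldhb*, *C1qtnf12*, *Egr2*, *Moxd1* and *Psph*. It held 74 Sostdc1 members, 68 with both and 21 Krt79 members. The other, of 304 cells with 86 members, was led by *Cst6*, *Defb6*, *Krt17*, *Aadac*, *Alox12e*, *Nebl*, *Atp6v1c2* and *Cd200*, at 55041 CPM of *Cst6*, and held 40 Krt79 members, 46 with both and 0 Sostdc1 members. A cluster led by histone genes held 27 members, of which 13 were Sostdc1 members. A cluster of 188 cells led by *2310046K23Rik*, *Aqp3* and *Krt6a* held 13 members, and one led by bulge genes such as *Wfdc3*, *Grem1* and *Krt24* held 16. The split by *Krt79* and *Sostdc1* thus went with the clusters in part. The cluster led by *Cst6* held 0 Sostdc1 members, while that led by *Plin2* held Sostdc1 members, Krt79 members and members with both. The clusters share these cells and are no independent measure.

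The 2 main clusters also held 278 of the basal-type cells (10.2%). They did not meet the rule, and the ratios over basal-type cells include them. Without these clusters in the basal-type group, an alternative chosen after seeing the data, the log2 ratio of *Cst6* was 6.21, that of *Defb6* 5.97 and that of *Alox12e* 5.45.

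**Figure D5:**
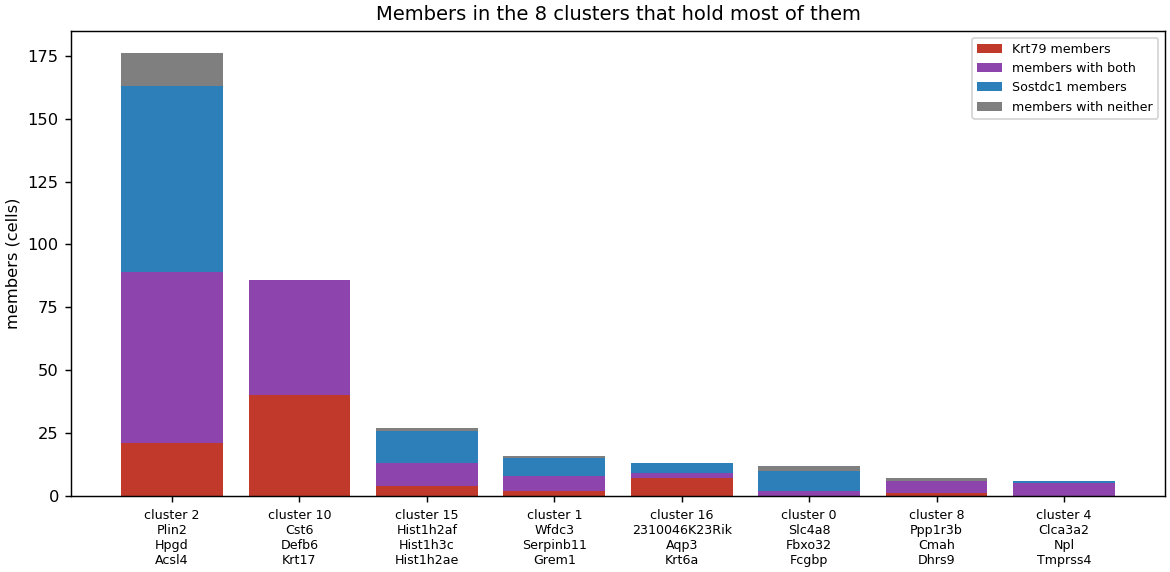
Number of members (cells) in the 8 clusters that hold most of them, with the 3 leading genes of each; colours show Krt79 members, members with both, Sostdc1 members and members with neither. The cluster led by *Cst6* holds 86 members and 0 Sostdc1 members, and the cluster led by *Plin2* holds 176.

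Markers of other cell classes were found in some members. Of the 376 members, 19 had UMIs in 3 or more markers of another class, of which 8 had those of fibroblasts, 5 of immune cells, 3 of muscle, 2 of the hair matrix, 1 of endothelium and 0 of melanocytes. The 7 fibroblast genes summed to 440 CPM in members, 292 in basal-type cells, 1461 in Krt79 members and 56.6 in Sostdc1 members, led in Krt79 members by *Col1a2* at 756 CPM, with none of the 7 at 0. Of 6 compared fibroblast genes 6 were at least 2-fold higher in Krt79 than in Sostdc1 members. Of 4 compared immune genes 3 were at least 2-fold lower, with sums of 125 and 430 CPM. Of all genes in that comparison, 11.9% were at least 2-fold higher and 13.4% at least 2-fold lower. Without the 19 cells, *Col1a2* stood at 3.7 CPM in the 77 remaining Krt79 members and *Cst6* at 53608. The fibroblast sum was then 14.8 CPM in Krt79 and 32.0 in Sostdc1 members, so its direction turned. It also turned between all members and basal-type cells, at 21.2 and 30.9 CPM without such barcodes. The immune sums of Krt79 and Sostdc1 members, 88.8 and 152 CPM, kept their direction. The 9 immune genes summed to 290 CPM in members, led by *Cd74* at 120, with *Cd3e* at 0, against 94.9 in basal-type cells. The 4 immune genes that could be compared were all at least 2-fold higher in members than in basal-type cells, beside 5.52% of all genes. Without barcodes with markers of another class the immune sums were 125 and 46.3 CPM. The part of these markers in the differences between members and basal-type cells and between Krt79 and Sostdc1 members was not tested. Melanocyte genes summed to 23.4 CPM and endothelial genes to 10.7, with *Kdr* and *Cldn5* at 0. Bulge genes were not counted as another class, and 12 members (3.19%) had UMIs in 3 or more of the 7. Of the members, 28 (7.45%) were among the barcodes that most resembled simulated doublets, against 7.12% of all kept barcodes, and they were not removed. The part of doublets and free RNA in single members was not tested.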

How the data were processed

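Cells of back skin and PG were measured with 1 droplet library a tissue. The authors deposited counts of UMIs per gene and barcode from Cell Ranger 4, unfiltered and not normalized, and the submitters' processing notes name mm10. The annotation release is not given in the sources used here. Positions were read from GENCODE M21, which holds 32235 of the 32285 gene identifiers. The members and gene lists were chosen with earlier results of these data known.

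UMIs were summed per group and divided by its total (CPM). Genes with at least 20 CPM in either group were compared, and a 2-fold difference was counted. Levels have exact Poisson, ratios exact binomial and shares exact Clopper-Pearson 95% intervals. Of these, the intervals of ratios were tested on simulated data. All simulated cells of a group had the same profile, so the test did not cover the spread between cells. Cells are not replicates, so no p-value is given. A limit of 3 counts stood for 0. Clusters used 1992 of 2000 variable genes, 30 principal components, 15 neighbours and resolution 1.0 (scanpy 1.11.5, leidenalg 0.10.2). Named genes were the 15 highest and 10 lowest over basal-type cells, 8 at each end over bulge-type and suprabasal-type cells and 10 at each end between Krt79 and Sostdc1 members, with at least 100 CPM and UMIs in 10% of cells, and the strongest of 28 lists. Genes of the rule, those defining a group, and mitochondrial and ribosomal genes were not ranked. An item among them is not reported here, though counts over genes and lists include it.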

Additional observations from a re-analysis of the deposited data

Results flagged for a closer look

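The PG library, which the comparisons of the skin cells did not use, also held barcodes that passed the same rule. They were 387 of 4699 kept barcodes (8.24%, exact 95% interval 7.47% to 9.06%), with a median of 3969 UMIs. *Cst6* stood at 17375 CPM in them and *Defb6* at 1871, beside 15486 and 2672 in the skin members. *Krt79* stood at 879 CPM, *Sostdc1* at 125 and *Aldh3a1* at 390, beside 2552, 488 and 208. *Mgst1*, a microsomal glutathione S-transferase, stood at 1461 CPM beside 120. *Klk7* had no UMI in the PG barcodes and stood at 204 CPM in the skin members, and *Fst* stood at 40.1 beside 435. Library and tissue cannot be told apart, and the barcode lists of the libraries differ in length (6794880 and 737280).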

How the results depend on the processing

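No paired analysis was possible because each tissue has 1 pooled library. The number of members was 920 (10.3% of the kept barcodes) with 2 or more markers, 123 (1.38%) with 4 or more, and 87 (0.978%) with markers counted after thinning to 1000 UMIs. The share was 5.44% among barcodes of 2000 to 8000 UMIs and 5.48% without barcodes with 3 or more markers of another class. The upper follicle genes at least 2-fold higher than in basal-type cells stayed at 8 in number under each alternative run.

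With thinned markers, and so fewer cells, 690 genes were at least 2-fold higher and 611 lower over basal-type cells, 623 and 997 over bulge-type cells, and 2314 and 1569 between Krt79 and Sostdc1 members. This last pair was 1508 and 1488 with 4 or more markers and 487 and 474 with 2 or more. With at least 50 CPM, which leaves fewer genes, the counts were 146 and 109 over basal-type, 146 and 223 over bulge-type, 348 and 395 over suprabasal-type cells, and 305 and 237 between Krt79 and Sostdc1 members. Without ribosomal and mitochondrial genes in the totals, 1453 genes were lower in Krt79 members.

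Of 864 values of named genes under 12 alternatives, 671 were within the counting interval, 191 outside it in the same direction, and 2 reversed, both with thinned markers. *Hist1h1b* had a log2 ratio over bulge-type cells of -4.19 and *S100a4* one between Krt79 and Sostdc1 members of 2.05; the cause was not tested. An alternative chosen after seeing the data took the 2 main clusters out of the basal-type group and reversed no named gene. *Ccl2* over basal-type cells ranged from 1.04 to 4.32 over the alternatives, *Cst6* from 4.59 to 6.44 and *Defb6* from 4.10 to 6.13.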
